A study of Homo sapiens with 3 samples.

Results

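The genes described here encode the proteasome and its dedicated helpers. They are the 48 genes whose symbol is PSM, a letter from A to G and a number, found among 39320 gene rows on the main chromosomes in each of 3 RNA-seq libraries. The rule reads names only and uses no measured value. All 3 libraries are labelled as wild-type HepG2, an established line of liver cancer cells, and they form 1 condition with no treatment named in the labels. The RNA was polyadenylated, so levels are of mRNA and not of protein. The labels do not say whether the replicates came from separate cultures, so the spread between them may be technical. Levels are given in TPM, a scaled measure of transcript number, which corrects for transcript length and sums to the same total in every library. In bulk RNA, fewer cells with a transcript and less of it per cell cannot be told apart.

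The proteasome is the large protease that degrades proteins tagged with ubiquitin. Its core particle is a barrel of stacked rings, with outer alpha rings that form the gate and inner beta rings that hold the peptidase sites. A regulatory particle, built from a base with an ATPase ring and from a lid, binds ubiquitin chains, removes them and threads the substrate into the barrel. In immune cells, and in other cells exposed to interferon, the 3 peptidase subunits can be replaced by immunoproteasome counterparts, whose products favour antigen presentation. In liver, as elsewhere, the complex clears misfolded and short-lived proteins.

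The labelled cell type was checked first. Of the 8 hepatocyte markers 0 reached 1 TPM in every library. GPC3, ALB, APOB, APOA1 and SERPINA1 were listed at 0 throughout, with a summed level of the list between 0.0571 and 0.244 TPM. The epithelial keratins KRT8 and KRT18 had 2610 ± 28.6 and 2017 ± 102 TPM (SD, n = 3). Of 7 blood and immune markers, 1 reached 1 TPM in every library, CD68 with 9.41 ± 0.965 TPM, and PTPRC, CD3E, LYZ and HLA-DRA were listed at 0. Of 6 fibroblast markers, only COL1A1 did so, with 6.93 ± 0.564 TPM. AFP, the fetal counterpart of albumin, averaged 0.0162 TPM. HepG2 cells are known for making albumin, AFP and apolipoproteins, so the hepatocyte markers go against the label. The libraries are called labelled HepG2 for that reason, and the part of cell identity in the levels below was not tested.

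Proteasome mRNA took 0.945% of all TPM in replicate 1, 0.949% in replicate 2 and 0.953% in replicate 3, or 0.949 ± 0.00388% (SD, n = 3). At least 10 TPM was reached in every library by 45 of the 48 genes (93.8%), whereas 20.7% of all gene rows and 40.4% of the 18743 protein-coding rows did so. At least 100 TPM in every library was reached by 29 of 48 (60.4%), compared with 3.62% of all rows. The 3 genes that missed 10 TPM were PSMA8 and PSMB11, listed at 0 throughout, and PSMB9, which fell under it in 1 library. Almost the whole family was thus present, over a range from 11.6 TPM for PSMB9 to 1250 TPM for PSMA7.

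**Figure D1:**
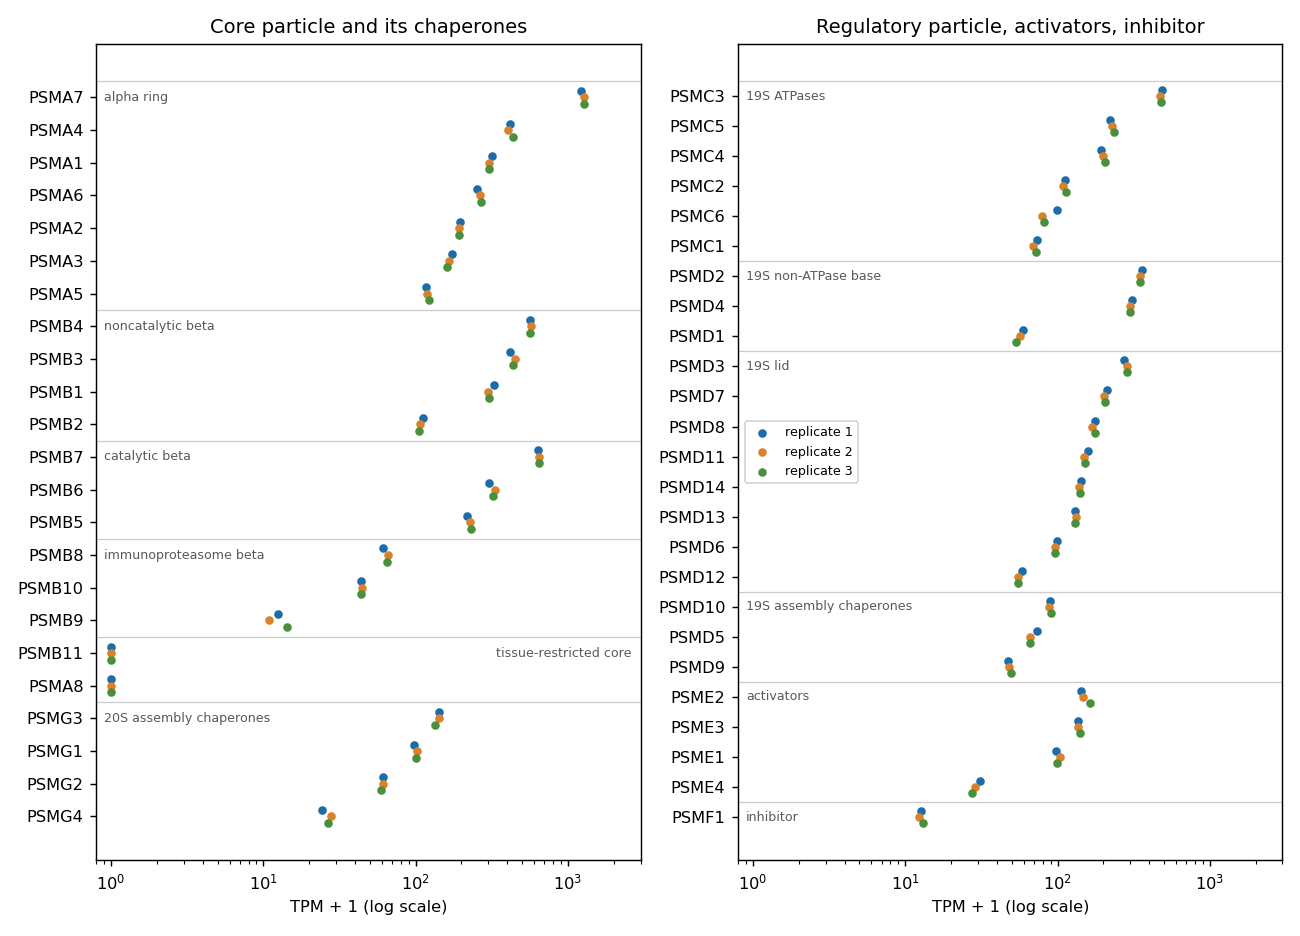
Level of each of the 48 proteasome genes as TPM + 1 on a log axis, by role, with 1 point for each of 3 libraries. The 3 points of a gene lie close together, while genes of the same role are spread out, with PSMA7 highest and PSMA8 and PSMB11 at 0.

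The alpha ring is made of 7 different subunits, each present once per ring, and all 7 exceeded 100 TPM in every library. PSMA7 encodes α4, one of these subunits, and had 1212, 1273 and 1267 TPM in replicates 1, 2 and 3, or 1250 ± 33.9 TPM. It ranked 93rd by mean TPM among all 39320 gene rows and stood apart from the other alpha genes. PSMA4, the α3 subunit whose tail helps to close the gate, followed with 416, 405 and 434 TPM. PSMA1 (α6) had 317, 303 and 304 TPM, and replicate 1 was the highest. PSMA6 (α1) had 254, 264 and 267 TPM, and replicate 1 was the lowest. At the lower end, PSMA2 (α2) had 194, 193 and 191 TPM. PSMA3 (α7) had 171, 164 and 160 TPM. PSMA5 (α5) had 117, 118 and 121 TPM and was the lowest of the ring. The highest and the lowest alpha gene differed 10.5-fold in mean TPM, although their products enter the ring in equal number.

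The noncatalytic beta subunits, which complete the inner ring without a peptidase site, were led by PSMB4 (β7) with 560, 576 and 563 TPM. PSMB3 (β3) had 419, 447 and 434 TPM. PSMB1 (β6) had 328, 299 and 303 TPM. PSMB2 (β4) was lowest at 110, 105 and 104 TPM, the lowest level among the 14 genes of the constitutive core. Its mean, 106 ± 3.38 TPM, was 11.8-fold below that of PSMA7.

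Among the constitutive peptidase subunits, PSMB7 (β2, trypsin-like) was the highest with 640, 647 and 644 TPM, or 643 ± 3.40 TPM. PSMB6 (β1, caspase-like) had 304, 329 and 320 TPM, or 318 ± 12.7 TPM. PSMB5 (β5, chymotrypsin-like), the main target of bortezomib, had 217, 226 and 229 TPM, or 224 ± 6.02 TPM. The order was the same in every library, and the values of no pair of these genes overlapped.

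Each of the 3 immunoproteasome counterparts was lower than the subunit it replaces. PSMB8 (β5i) had 59.9, 65.0 and 64.3 TPM. PSMB10 (β2i) had 43.1, 43.8 and 43.0 TPM. PSMB9 (β1i) had 11.5, 9.93 and 13.3 TPM, the lowest of all the subunits detected and the most uneven. Together the 3 made up 8.98%, 8.99% and 9.18% of the TPM of the 6 peptidase genes in replicates 1, 2 and 3.

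Within a library, PSMB6 was 26.3, 33.1 and 24.1 times PSMB9, or 27.8 ± 4.73-fold (SD, n = 3). PSMB7 was 14.9 ± 0.102 times PSMB10. PSMB5 was 3.55 ± 0.0777 times PSMB8, the smallest of these ratios. On the scale of log2(TPM + 1) the differences were 4.67 ± 0.22, 3.86 ± 0.01 and 1.81 ± 0.03, and each was positive in 3 of 3 libraries. The p of each was 0.25 by an exact sign-flip permutation test, two-sided, and stayed 0.25 when adjusted by Benjamini-Hochberg over the 6 pairs with a value. With 3 libraries no lower p can be reached. The difference of PSMB5 over PSMB8 depended on the measure. By the deposited coverage, the mean number of reads over each base of the gene, PSMB5 was below PSMB8, with a log2 difference of -0.57 ± 0.03, while the other differences were 4.69 and 3.89.

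**Figure D2:**
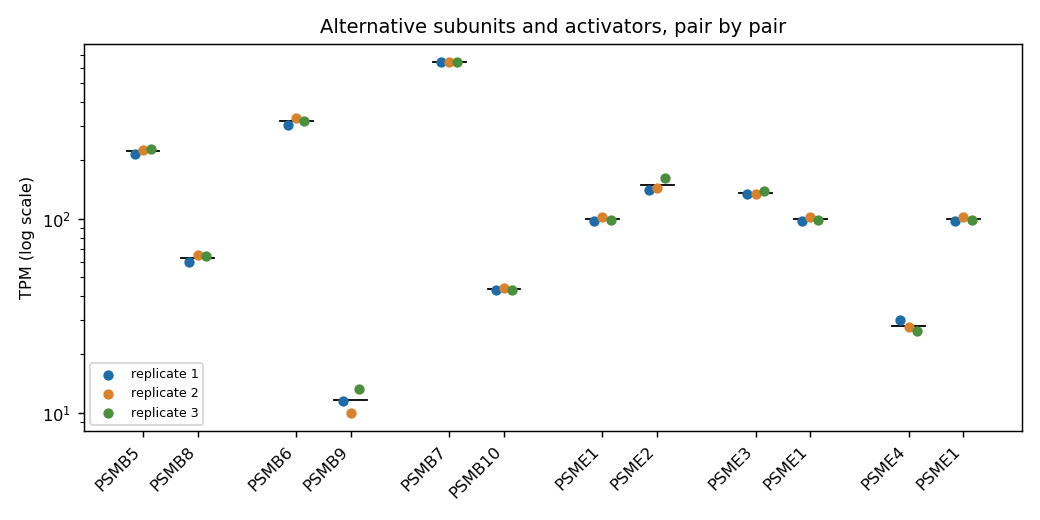
TPM on a log axis of the genes in 6 pairs of alternative subunits or activators, with 1 point for each of 3 libraries and a line at the mean. The constitutive subunit lies above its immunoproteasome counterpart in each pair, by the most for PSMB6 and PSMB9 and by the least for PSMB5 and PSMB8, and PSME2 lies above PSME1.

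The core has alternative subunits that belong to 1 tissue. PSMA8, the testis form that takes the place of PSMA7, was listed at 0 in all 3 libraries. PSMB11, the thymus form of the β5 subunit, was listed at 0 as well, so no ratio was formed for either. A listed 0 comes with no read count here, so it sets no upper limit on the level.

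The immunoproteasome genes lie beside other genes of antigen presentation. PSMB9 lies on the plus strand of chromosome 6 from 32854192 to 32859851 in GRCh38, and PSMB8 on the minus strand from 32840717 to 32844679, with 9512 bp between them. TAP1, a subunit of the peptide transporter, lies on the opposite strand with its highest coordinate at 32853971. This is the 5′ end of its row, with 220 bp between it and the start of PSMB9. In these libraries TAP1 had 29.5, 27.5 and 28.3 TPM and PSMB9 was lower in each. Of 12 genes of antigen processing, 10 reached 10 TPM in every library. ERAP2, a peptide trimming enzyme, did not and was the lowest of the 12 at 1.39 ± 0.0343 TPM. The highest was B2M, the light chain of class I molecules, at 776 ± 6.08 TPM. PSMB8 and PSMB9 have 7 further rows each on alternate contigs, and PSMB3 has 1, and all 15 were at 0 TPM.

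The ATPase ring of the regulatory particle unfolds the substrate, and its 6 subunits are again present once each. PSMC3 (Rpt5) was the highest with 483, 470 and 477 TPM. PSMC5 (Rpt6) had 221, 227 and 233 TPM. PSMC4 (Rpt3) had 192, 198 and 204 TPM. These 3 genes and PSMC2 exceeded 100 TPM in every library. PSMC2 (Rpt1) had 111, 108 and 113 TPM. PSMC6 (Rpt4) had 98.9 TPM in replicate 1 and 78.4 and 81.1 TPM in replicates 2 and 3. PSMC1 (Rpt2) had 72.5, 68.3 and 71.7 TPM. The high value of PSMC6 in replicate 1 gave it the widest spread among the regulatory particle genes named PSM, 86.1 ± 11.1 TPM. Its coverage per FPKM, relative to the highest in the library, was 0.545, 0.617 and 0.588 in replicates 1, 2 and 3. The size of its excess in replicate 1 therefore depends on the measure.

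Of the remaining base subunits, PSMD2 (Rpn1), a scaffold that docks ubiquitin receptors, had 355, 347 and 346 TPM. PSMD4 (Rpn10), a ubiquitin receptor, had 306, 296 and 297 TPM. PSMD1 (Rpn2), the other scaffold, had 58.8, 55.8 and 52.3 TPM. The paired scaffolds thus differed 6.28-fold in mean TPM.

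In the lid, which holds the deubiquitinase and its supports, the levels ran from 281 ± 8.92 TPM for PSMD3 (Rpn3) to 54.9 ± 2.16 TPM for PSMD12 (Rpn5). PSMD7 (Rpn8), the inactive partner of the deubiquitinase, had 209, 202 and 204 TPM. PSMD14 (Rpn11), the deubiquitinase itself, had 141, 137 and 140 TPM. PSMD7 was above PSMD14 in every library. The other structural lid genes were PSMD8 with 173 ± 4.43 TPM, PSMD11 with 153 ± 4.27 TPM, PSMD13 with 130 ± 1.04 TPM and PSMD6 with 96.2 ± 1.78 TPM.

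Within the groups of like role, every gene was compared with its next neighbour in the order of mean TPM. In 0 of the 35 neighbouring pairs did the libraries' values overlap, although some steps were small. No such count was made over other genes, so it shows nothing particular to the proteasome genes. The lowest library of PSME2 had 141 TPM and the highest of PSME3 had 140 TPM. With 3 libraries no test of such a step can go below p = 0.25 by an exact sign-flip permutation.

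The regulatory particle genes named PSM lay below the core. ADRM1 and SEM1, with means of 427 and 369 TPM, are also subunits but carry other symbols and were left out here and below. The median of the 17 regulatory genes was 158, 149 and 151 TPM in replicates 1, 2 and 3. That of the 14 constitutive core genes was 311, 301 and 304 TPM. The difference of the medians on the log2(TPM + 1) scale lay between -1.01 and -0.97, or -0.99 ± 0.02 (SD, n = 3). By coverage the difference had the same sign and was -0.36. Subunit genes of the same particle varied far more among themselves, with an SD of log2 mean TPM of 0.97 in the core and 0.92 in the regulatory particle, than any of these genes varied between libraries, where the widest range of log2(TPM + 1) was 0.331.

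Such unequal levels were compared with those of 3 other multi-subunit assemblies. In the CCT chaperonin, which folds actin and tubulin, the 8 subunit genes differed 3.30-fold, from TCP1 at 247 TPM to CCT5 at 817 TPM. In the translation factor eIF3, the 13 genes differed 7.87-fold, from EIF3H at 47.2 TPM to EIF3B at 371 TPM. In the COP9 signalosome, a relative of the proteasome lid, the 9 genes differed 13.3-fold, from COPS7B, which shares its place with COPS7A, at 16.7 TPM to COPS6 at 222 TPM. In TPM, the 11.8-fold range of the core and the 8.68-fold range of the regulatory particle lay between those of the chaperonin and the signalosome. The gene sets were not alike, since the signalosome list held COPS7B beside COPS7A while the core list left out alternative subunits. The next lowest signalosome gene was COPS8 at 27.0 TPM, so this ranking depends on COPS7B. By coverage the ranges were 74.2-fold for the core, 10.8-fold for the regulatory particle, 2.03-fold for the chaperonin, 6.76-fold for eIF3 and 36.5-fold for the signalosome, so the core then had the widest. The lowest core genes by coverage were PSMA6 at 100 and PSMB5 at 197 reads per base, against 7458 for PSMA7. The size of the core range thus depends on PSMA6, and that of the signalosome range on COPS7B, at 36.2 reads per base. The median gene of the core, 309 TPM, was also between the others, with 364 TPM for the chaperonin, 153 TPM for eIF3 and 67.1 TPM for the signalosome, and that of the regulatory particle was 153 TPM.

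**Figure D3:**
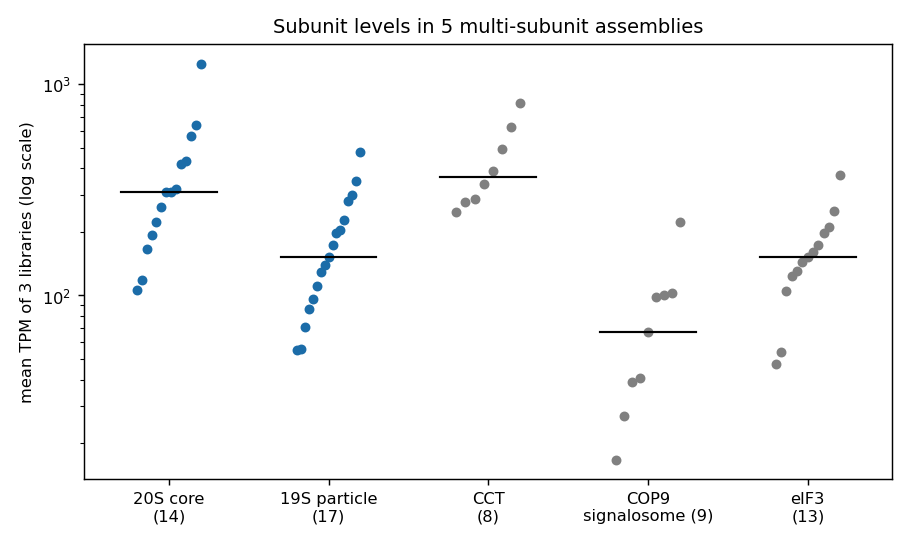
Mean TPM of 3 libraries on a log axis for each subunit gene of 5 assemblies, with a line at the median and the number of genes in parentheses. The core (median 309 TPM) and the regulatory particle (median 153 TPM) are drawn in blue and the comparison complexes in grey, and in each complex the subunits cover a range of at least 3.30-fold.

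Alternative activators bind the core in place of the regulatory particle and need no ATP. PSME1 and PSME2 encode the alpha and beta subunits of PA28αβ, an interferon-inducible ring that opens the gate. PSME1 had 97.3, 102 and 98.4 TPM. PSME2 had 141, 145 and 162 TPM, with replicate 3 the highest. PSME1 was thus 0.666 ± 0.0527 times PSME2 (log2 difference -0.58 ± 0.12, lower in 3 of 3 libraries, exact permutation p = 0.25, adjusted 0.25). PSME3, the nuclear PA28γ, had 135, 134 and 140 TPM, or 1.37 ± 0.0530 times PSME1 (log2 difference 0.45 ± 0.06, higher in 3 of 3 libraries, exact permutation p = 0.25, adjusted 0.25). PSME4, the nuclear activator PA200, had 30.2, 27.8 and 26.3 TPM. It was 0.283 ± 0.0236 times PSME1 (log2 difference -1.79 ± 0.11, lower in 3 of 3 libraries, exact permutation p = 0.25, adjusted 0.25). PSMF1, which encodes the inhibitor PI31, had 11.7, 11.3 and 12.1 TPM and was the second lowest of the genes detected. PSME1 and PSME2 lie 4397 bp apart on chromosome 14, on opposite strands.

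The median of the 48 genes was 137 TPM, and of the 7 chaperones that build the particles only PSMG3 exceeded it in mean TPM. PSMG1 and PSMG2 form the pair that assembles the alpha ring. They had 99.4 ± 2.57 and 59.5 ± 1.39 TPM. PSMG3 and PSMG4 form the other pair and were less alike, with 141, 141 and 133 TPM for PSMG3 and 23.2, 26.8 and 25.5 TPM for PSMG4. For the base, PSMD10 (gankyrin) had 87.8 ± 1.49 TPM, PSMD5 had 67.4 ± 4.42 TPM and PSMD9 had 47.4 ± 1.23 TPM. None of these 3 base chaperones reached 100 TPM.

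Genes that work with the proteasome but carry other symbols were given beside it. Of 18 partner genes 17 were found, and all 17 reached 10 TPM in every library. ADRM1, the ubiquitin receptor Rpn13, was the highest with 424, 430 and 427 TPM, above its fellow receptor PSMD4 in TPM, although its mean coverage was lower, 1417 against 1696 reads per base. PAAF1, a factor of base assembly, was the lowest with 22.2 ± 0.555 TPM. SEM1, a small lid subunit, had 304 TPM in replicate 1 and 398 and 403 TPM in replicates 2 and 3, a wider spread than that of any lid gene named PSMD. Its coverage per FPKM was 0.00726 of the highest in the library. POMP, the maturation factor of the core, had 153, 170 and 168 TPM. RPS27A, which encodes ubiquitin joined to a ribosomal protein, had 1647, 1587 and 1608 TPM. It was above PSMA7 in TPM but not in mean coverage, 6584 against 7458 reads per base. Of 6 regulators of proteasome genes 5 reached 10 TPM, led by NFE2L1, the transcription factor that raises proteasome genes when the protease is inhibited, at 76.5 ± 2.55 TPM. Its relative NFE2L3 was the lowest at 2.66 ± 0.296 TPM.

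The proteasome genes varied little between the libraries. The range of log2(TPM + 1) between the highest and lowest library had a median of 0.0729 over the 46 members that averaged 10 TPM or more and of 0.129 over the 8419 gene rows at that level. Among rows with a mean of at least 100 TPM, the medians were 0.0714 for 29 members and 0.0958 for 1491 rows. A range above 1 was found in 0 of 46 members and in 0.273% of all rows, too rare for the 0 to set the members apart. The median coefficient of variation was 2.65% for the members and 4.88% for all rows with a mean of at least 10 TPM. With a mean of at least 100 TPM it was 2.57% and 3.51%. The widest ranges were those of PSMB9 (0.389) and PSMC6 (0.331), followed by PSME2 and PSMG4 (0.197 each) and PSME4 (0.193). PSMB7 had the narrowest, 0.0151.

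**Figure D4:**
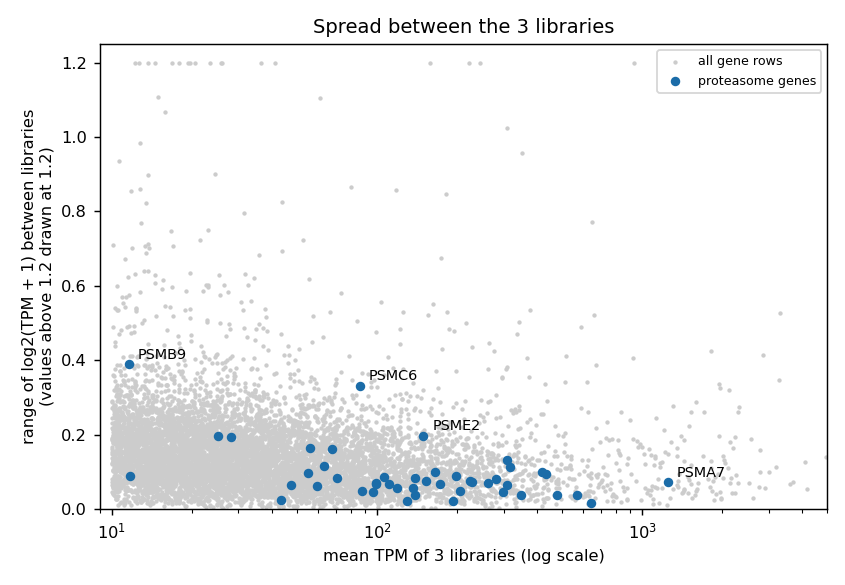
Range of log2(TPM + 1) between the 3 libraries against mean TPM on a log axis, for gene rows with a mean of at least 10 TPM in grey and proteasome genes in blue, with ranges above 1.2 drawn at 1.2. Most proteasome genes lie low (median range 0.0729), with PSMB9 and PSMC6 highest among them.

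The libraries also differed in which one was highest. Replicate 1 was the highest of the 3 for 20 of 46 members (43.5%), whereas it was the highest for 62.5% of all rows with a mean of at least 10 TPM. Replicates 2 and 3 were each the highest for 13 members (28.3%), beside 20.3% and 17.1% of all rows. The lowest value fell in replicate 1 for 18 members (39.1%, beside 19.5% of all rows), in replicate 2 for 19 (41.3%, beside 31.2%) and in replicate 3 for 9 (19.6%, beside 49.3%). The highest ratio of coverage to FPKM, a relative measure of depth, exceeded that of replicate 3 by 1.16 times in replicate 1, and its part in this was not tested.

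TPM rests on the length assigned to each gene, and coverage gives a second view of the same reads. Across the 46 members above 0, mean TPM and mean coverage had a Spearman correlation of 0.861. This is a correlation across genes, all from the same libraries. In 5 of 46 members (10.9%) the coverage per FPKM was under 0.25 of the highest in the library, as it was in 13.1% of all rows with a mean of at least 10 TPM. These were PSMA6 (0.064), PSMG4 (0.073), PSMB5 (0.147), PSMA4 (0.219) and PSMG2 (0.238). Ordered by coverage, PSMA6 moved from ninth to last of the 14 core genes, and the range of the alpha ring widened from 10.5-fold to 74.2-fold. All 13 detected members with 1 RefSeq transcript had at least 0.9 of the highest coverage per FPKM, compared with 11 of the 33 with more than 1 (33.3%). Over all rows with a mean of at least 10 TPM the shares were 87.7% for genes with 1 RefSeq transcript and 25.6% for those with more, so a split of the same direction was present in all genes. Mean TPM and the length of the main annotated transcript, which ran from 762 to 8154 bases over the family, had a Spearman correlation of -0.34 over the 46 members.

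**Figure D5:**
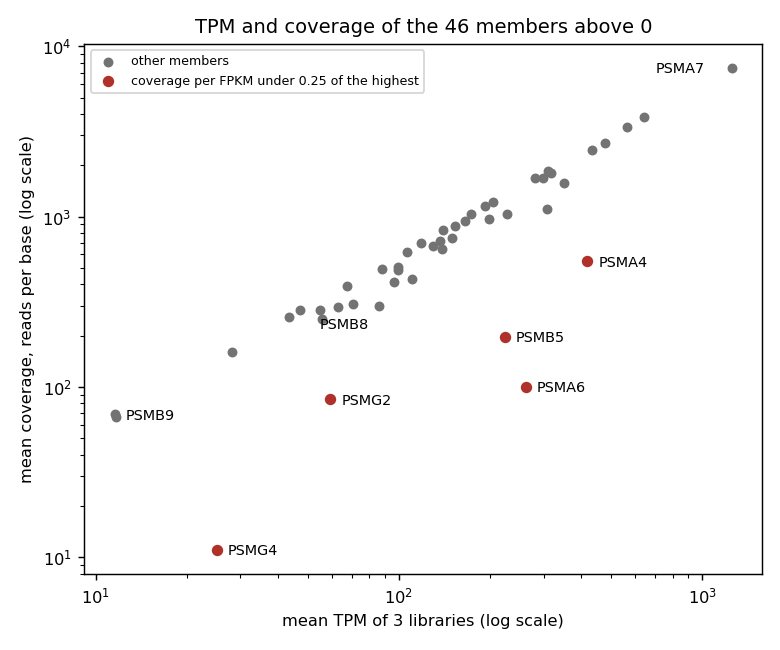
Mean coverage in reads per base against mean TPM of 3 libraries, both on log axes, for the 46 proteasome genes above 0. The 5 genes in red have under 0.25 of the highest coverage per FPKM and lie below the band formed by the others, and PSMB5 lies below PSMB8 on the coverage axis while it exceeds it in TPM.

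Reads of overlapping genes are a further limit, since the strand setting of the counting is not given in the sources used here. The rows of 16 members are overlapped by 21 other rows, 20 of them on the opposite strand. The partner reached a mean of 10 TPM for 7 members. Such overlaps were not counted over other genes, so these counts show nothing particular to the members. DNAJC2, with 99.2 ± 4.67 TPM, shares 469 bp with PSMC2, and FTSJ3, with 81.0 ± 0.276 TPM, shares 233 bp with PSMC5. PSMA3-AS1, at 12.7 ± 0.645 TPM, shares 6645 bp with PSMA3, and LOC100129034, at 33.0, 30.1 and 27.9 TPM, shares 5714 bp with PSMB7. The partners were lower than the proteasome gene in each of these 4 cases, and their reads could not be told apart from those of the member in the shared part.

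The members are spread over 17 chromosomes, with 8 on chromosome 14 and 7 on chromosome 17. The shares of all gene rows on these chromosomes were not counted, so no clustering can be read from these numbers. The promoters of the members were read to see whether they share known regulatory motifs. RefSeq promoter sequences (GRCh38.p14, 250 bases before to 50 bases after each start) matched 42 of the 48 genes and gave 51 windows. PSMA7, PSMB1, PSMB6, PSMB7, PSMD4 and PSMG3 were not matched. Motifs were searched as exact letters on both strands. A match describes the letters in a window and is not evidence of binding.

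The core of the antioxidant response element, TGACNNNGC, is the kind of site that NFE2L1 and its relatives bind. It was found in 15 of 51 member windows (29.4%) and in 13.3% of all 35116 windows. By gene the shares were 35.7% of members, 16.1% of all genes and 19.9% of genes with at least 10 TPM in every library. Shown are windows of 4 genes in which the motif lies before the start of the gene row as well, as examples from the core, the lid and the base chaperones, 5′ to 3′ on the gene's strand, with the motif in capitals.
PSMB3, chr17:38752623-38752659, plus strand: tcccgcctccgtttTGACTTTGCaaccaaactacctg
PSMD12, chr17:67366720-67366756, minus strand: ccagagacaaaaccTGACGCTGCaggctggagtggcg
PSMD3, chr17:39980756-39980792, plus strand: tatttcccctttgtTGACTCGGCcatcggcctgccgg
PSMD5, chr9:120843034-120843070, minus strand: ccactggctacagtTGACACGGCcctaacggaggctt
The mean levels of these genes were 433 TPM for PSMB3, 54.9 TPM for PSMD12, 281 TPM for PSMD3 and 67.4 TPM for PSMD5. In PSMA4, PSMC4, PSMC5 and PSMD1 the only matches lay past the start of the gene row.

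The core of the interferon-stimulated response element, GAAA followed by 2 bases of any kind and GAAA again, was found in 7 of 51 member windows (13.7%) and in 3.57% of all windows. By gene the shares were 16.7% of members, 4.38% of all genes and 3.62% of genes with at least 10 TPM. The 7 genes were PSMB8, PSMB10, PSME1, PSME2, PSMG4, PSMB4 and PSMA4. PSMB9, the remaining immunoproteasome gene, had a promoter sequence but no match to this motif. The windows of the first 5 are shown because they hold the same 10 letters, and because the first 4 encode immunoproteasome or PA28αβ subunits, which interferon is known to raise.
PSMB10, chr16:67936851-67936885, minus strand: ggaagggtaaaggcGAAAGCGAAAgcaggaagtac
PSME2, chr14:24146619-24146648, minus strand: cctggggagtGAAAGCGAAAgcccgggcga
PSMG4, chr6:3258904-3258933, plus strand: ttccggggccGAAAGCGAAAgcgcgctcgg
PSMB8, chr6:32844032-32844061, minus strand, motif on the opposite strand: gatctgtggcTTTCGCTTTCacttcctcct
PSME1, chr14:24136189-24136218, plus strand, motif on the opposite strand: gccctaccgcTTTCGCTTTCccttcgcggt
The match of PSMB10 lies before the start of the gene row. Those of PSME2, PSME1, PSMB8 and PSMG4 lie 8, 41, 628 and 4589 bases past it, near other starts that RefSeq lists. In these libraries the 5 genes had mean levels of 43.3 TPM (PSMB10), 150 TPM (PSME2), 25.2 TPM (PSMG4), 63.1 TPM (PSMB8) and 99.3 TPM (PSME1). The labels name no interferon treatment, so nothing on the use of these letters can be read from the data.

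The CCAAT box, a common promoter motif, was found in 20 of 51 member windows (39.2%) and in 34.6% of all windows. By gene the shares were 47.6% of members, 39.7% of all genes and 44.3% of genes with at least 10 TPM, so the members were close to expressed genes in general.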

How the data were processed

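Polyadenylated RNA of 3 libraries labelled wild-type HepG2 was sequenced as 150 bp paired-end reads. The submitters' processing notes name FastQC 0.11.8, Trim Galore 0.6.2, STAR 2.6.1a, StringTie and GRCh38. The annotation, the strand setting and the handling of reads shared with related copies are not given in the sources used here. The authors deposited 1 table per library with TPM, FPKM and coverage for each gene. The deposited TPM values are scaled for length and sum to the same total in each library. The deposited FPKM values are scaled for length and depth, and the deposited coverage signal is not scaled for depth. The tables hold no counts, so depth is unknown, no counting error could be given and the SD over 3 libraries is the precision.

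The tables were matched on gene, coordinates and strand, giving 43389 shared rows, with 10 left out. Of these, 39320 rows lie on main chromosome references, and the other 4069, on alternate or unplaced contigs, were used only as an alternative. Members were the rows with a symbol of PSM, a letter from A to G and a number. The members and lists were chosen with earlier results of these data known. Every member was named. Of the cell type markers, genes listed at 0, genes that reached 1 TPM in every library and AFP were named. Of the other lists, the highest and lowest gene and genes listed at 0 were named. SEM1, POMP, TAP1, COPS8 and the genes overlapping members were chosen after their values were seen. Fold changes between genes were taken within a library, and log2 differences used TPM with a pseudocount of 1. Of 8 pairs planned, 2 gave no value because a gene was listed at 0. The other pairs were tested, two-sided, by exact sign-flip permutation over the 3 libraries with Benjamini-Hochberg adjustment over 6 pairs, so no pair could go below p = 0.25. Particles and lists were described without a test. One gene of the other lists is not reported here. Coverage divided by FPKM was taken relative to its highest value in the library. Transcript lengths were taken from GENCODE v44 and promoters from RefSeq. A planned comparison of protein sequences was not made. The spread calculation was tested on simulated data with planted changes large enough to pass the limit of 1 on the range. That test does not bear on the smaller ranges compared here. Alternatives were other pseudocounts and limits, FPKM or coverage, other scalings, summed alternate contigs and leaving out each replicate. Calculations used Python 3.11.15, numpy 2.4.6, pandas 2.3.3, scipy 1.17.1 and matplotlib 3.10.9.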

Additional observations from a re-analysis of the deposited data

How the results depend on the processing

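Of 78 alternatives tried over 10 results, 71 kept the result, 6 moved the value further and 1 reversed it. A result was kept if a tested difference had the same sign, a count or median stayed within 1.5 times, or another value within its SD. Some of the 71 could not differ from the main value. The members' rows on alternate contigs were at 0, and a mean of at least 1 TPM selected the same genes. Tested differences could still move past their SD, as for PSMB7 against PSMB10, from 3.86 ± 0.01 to between 3.83 (FPKM) and 3.89 (pseudocount 0.1). By coverage in place of TPM, PSMB5 fell below PSMB8 (log2 difference -0.57), the difference between the regulatory particle and the core shrank to -0.36, the share of the proteasome genes rose to 1.28%, and the median range between libraries was 0.204, with coverage not scaled for depth. Without mitochondrially encoded genes the share was 1.19%. With a limit of 100 TPM, 29 members passed in place of 45. The median range between libraries with a replicate left out ran from 0.0327 without replicate 1 to 0.0592 without replicate 2. The causes of the moves by coverage were not tested, and the lower medians follow in part from a range over fewer libraries. The differences of the other 5 pairs kept their sign under the alternatives tried. No alternative gave a value for PSMA7 against PSMA8 or PSMB5 against PSMB11. No paired analysis was possible because all libraries belong to 1 condition. Depth is unknown, so levels near 0 carry no limit.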
